A study of Mus musculus with 33 samples.

Results

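Expression of 9 target genes of YAP and TAZ was described in mouse livers and liver tumours in which MYC, β-catenin or both had been activated. The genes were Ctgf, Cyr61, Ankrd1, Amotl1, Amotl2, Axl, Crim1, Ptpn14 and Fstl1. They were taken by symbol from the deposited expression table, as well-known targets of the YAP/TAZ-TEAD complex, with no rule on their values in these samples. Earlier results of these data were known when they were chosen. All 9 were among its 21671 genes.

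YAP and TAZ, encoded by Yap1 and Wwtr1, are transcriptional co-activators that bind DNA through TEAD factors. Hippo pathway kinases, among them LATS1 and LATS2, hold them in the cytoplasm. In the liver the pathway restrains organ size and regeneration, and hepatocytes, biliary, stellate and endothelial cells can all carry YAP/TAZ activity. The targets fall into classes. CTGF and CYR61 are secreted matricellular proteins (now also named CCN2 and CCN1), and ANKRD1 is a nuclear ankyrin repeat protein. The angiomotin-like proteins AMOTL1 and AMOTL2 and the phosphatase PTPN14 bind YAP and limit its activity, so they belong to a negative feedback. AXL is a receptor tyrosine kinase for GAS6. CRIM1 is a transmembrane protein that binds BMP ligands, and FSTL1 is a secreted glycoprotein.

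All animals were of strain C57BL/6. In the short-term arm, mice aged 6 to 8 weeks were given AAV8-TBG-CRE, a viral vector that expresses Cre recombinase from the hepatocyte-specific TBG promoter, and the liver was collected at day 4. Its groups were wild-type (WT), b-cat Ex3 (Ex3, an allele made stable when Cre removes exon 3 of the β-catenin gene), R26-lslMYC (MYC, a Rosa26 transgene that Cre turns on) and R26-lslMYC/b-cat Ex3 (MYC+Ex3), with 5 libraries each. The WT livers had received the same virus. In the tumour arm the labels describe the tissue as primary liver noduli. These came from Alb-CreERT2/R26-lslMYC mice (MYC tumours, 3 libraries) and Alb-CreERT2/R26-lslMYC/b-catEx3 mice (MYC+Ex3 tumours, 3 libraries), in which the albumin promoter drives a Cre that 4-hydroxytamoxifen (4-OHT) activates. Their controls were 7 WT livers collected 4 days after an intraperitoneal dose of 4-OHT, so they are of normal liver and not of tissue beside a tumour. The table holds 1 value per gene, so the removal of exon 3 cannot be checked in it. The labels give no age or treatment for the tumours and do not state whether libraries of a group came from separate animals, so p-values measure the spread between these samples.

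The windows before the genes' listed start sites were read for short motifs. TEAD factors bind the core GGAATG, which reads CATTCC on the other strand. Of the 9 genes 8 had a promoter in the RefSeq table (build GRCm38.p6), with Cyr61 listed there as Ccn1. In the 250 bases before the start site 6 of these 8 held the core on either strand: Cyr61, Ankrd1, Amotl2, Axl, Crim1 and Ptpn14. The start site is the one RefSeq lists, and GENCODE M21 annotates untranslated exons of transcripts in some of these windows, over all 250 bases for Ankrd1, 182 for Fstl1, 136 for Amotl2 and 56 for Amotl1. The windows of Cyr61, Axl, Crim1 and Ptpn14 held no annotated untranslated exon. Over all 32851 promoter windows of this length 12.6% held the TEAD core. Ankrd1 held it at 2 positions, as did 1.02% of windows with at least 2. The 8 windows held no match to the E-box CACGTG, which MYC/MAX dimers bind and 6.02% of windows contain. The core CTTTGA, which TCF/LEF factors bind, was also searched on both strands. It was present in 13.8% of all windows and in 1 of the 8, Amotl2. A match is a description of the letters and not evidence of a bound site. The full window of Cyr61 (chr3:145649986-145650235, minus strand) and that of Ptpn14 (chr1:189728018-189728267, plus strand) are shown as examples of a secreted ligand and of a feedback inhibitor, with the TEAD core in capitals. For the others the core is shown with 11 bases on each side, each sequence running 5′ to 3′ along the gene's strand. The core lay 103 bases before the start of Cyr61 and 146 before that of Ptpn14. It lay 210 and 123 bases before that of Ankrd1, 65 before Amotl2, 233 before Axl and 79 before Crim1.
Cyr61: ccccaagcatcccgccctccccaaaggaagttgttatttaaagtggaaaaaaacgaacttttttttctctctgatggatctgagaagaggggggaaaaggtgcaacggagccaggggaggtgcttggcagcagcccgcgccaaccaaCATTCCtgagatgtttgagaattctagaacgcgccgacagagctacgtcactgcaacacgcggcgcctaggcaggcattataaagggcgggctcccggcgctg
Ptpn14: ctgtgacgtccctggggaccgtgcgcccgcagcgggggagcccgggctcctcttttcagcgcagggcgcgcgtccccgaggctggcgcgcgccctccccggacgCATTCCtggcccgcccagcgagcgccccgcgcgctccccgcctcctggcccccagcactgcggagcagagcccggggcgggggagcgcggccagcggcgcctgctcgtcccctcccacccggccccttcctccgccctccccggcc
Ankrd1, distal: tcactgccaaaGGAATGaccctctcaca
Ankrd1, proximal: acactaagtctGGAATGaaaattcacct
Amotl2: tgaaactctcaCATTCCtggcatagcag
Axl: gaaattctacaGGAATGtttaccagacc
Crim1: gggcgggggggGGAATGaggtaggatgg
The windows of Amotl1 and Fstl1 did not hold the core. The absence of these letters from 250 bases says nothing of sites further away.

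The deposited unit is RPKM, reads scaled to gene length and library total, so levels can be compared between genes. The short-term libraries held 3.75 to 7.31 M reads in genes and the tumour arm 6.65 to 9.82 M. The 2 arms are on different RPKM scales, so each was analysed by itself. Differences are in log2(RPKM + 1), in which weakly expressed genes appear to change less than their RPKM does, with their standard error (SE). They were tested with limma over all genes with an RPKM of at least 1 in at least 3 libraries of the arm. A gene was called at a Benjamini-Hochberg adjusted p under 0.05. The 10 hepatocyte markers checked, among them Alb and Ttr, were expressed in every group. Their sum was 250 to 442 RPKM in the 6 tumours against 322 to 439 RPKM in the 4-OHT livers. Since no gene exceeded 67.5 RPKM in that arm, this sum and the calls of its markers cannot show how much of the hepatocyte content was kept. Of the 10 markers, 0 were called higher in either kind of tumour. In MYC tumours 1 was called lower and in MYC+Ex3 tumours 4, beside 13.7% and 18.4% of all genes. In the short-term arm 10 libraries carried epidermal keratins (Krt5, Krt14 and Krt17 summing to 3.95 to 23.8 RPKM) and 10 did not (at most 0.398 RPKM). The keratin-bearing libraries held 3.75 to 5.10 M reads in genes and the keratin-free ones 4.39 to 7.31 M. A difference between the keratin sets thus cannot be told apart from one of depth. Keratin-bearing libraries numbered 3 of 5 in the WT, Ex3 and MYC+Ex3 groups and 1 of 5 in the MYC group, so values within each set are given where the direction or a call differed between them. As the samples are bulk tissue, fewer cells of a type and less RNA per cell cannot be told apart.

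All 9 genes were weakly to moderately expressed. In the short-term arm the mean RPKM ran from 0.582 for Ankrd1, above 31.9% of the genes, to 16.4 for Axl, above 72.4%. In the WT livers the order of the mean levels was Axl, Amotl2, Amotl1, Fstl1, Crim1, Cyr61, Ctgf, Ptpn14 and Ankrd1. Neighbours in that order from Axl to Ctgf overlapped, whereas Ptpn14 (1.25 to 2.06 RPKM) lay below Ctgf (2.19 to 5.05 RPKM) and above Ankrd1 (0 to 0.654 RPKM) in every library. Axl was also first in the 4-OHT livers at 7.68 ± 0.757 RPKM (SD, n = 7). In the MYC+Ex3 tumours Ctgf had the highest mean, 5.63 ± 2.12 RPKM (SD, n = 3), overlapping with that of Axl at 5.0 ± 0.664 RPKM. The spread within groups was largest for Ankrd1, with a coefficient of variation of 88.6% in the short-term arm, and smallest there for Crim1, at 14.8%. Ankrd1 rested on 0 to 22 reads per short-term library, so single reads moved its value, and nothing is drawn from it in that arm.

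**Figure D1:**
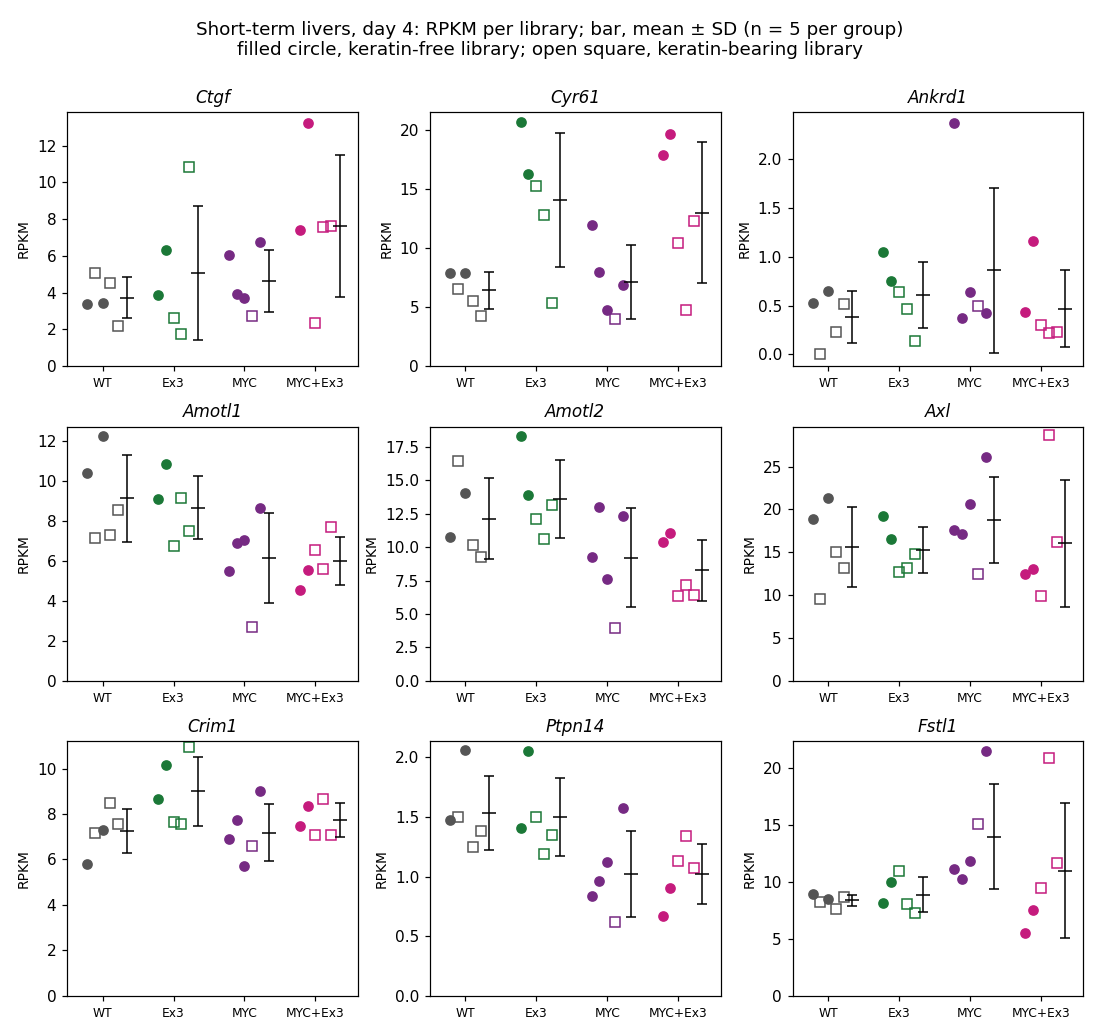
RPKM of each of the 9 genes in the 20 short-term livers at day 4, one panel per gene and one point per library; bars give the mean and SD of 5 libraries, and open squares mark keratin-bearing libraries. Cyr61 lay above the WT range in 4 of 5 Ex3 and 4 of 5 MYC+Ex3 livers, Fstl1 in all 5 MYC livers, and Amotl1 below the WT range in 4 of 5 MYC and 4 of 5 MYC+Ex3 livers.

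The secreted ligand Cyr61 was the gene that stood out with Ex3. It was at 7.88, 6.53, 7.88, 5.48 and 4.28 RPKM in the 5 WT livers. In the Ex3 livers it was at 20.7, 16.3, 15.2, 12.7 and 5.37 RPKM. In the MYC+Ex3 livers it was at 17.9, 19.6, 10.4, 4.74 and 12.3 RPKM. In both groups 4 of 5 livers thus lay above every WT liver and 1 lay within the WT range. The MYC livers, at 4.02 to 11.9 RPKM, were spread on both sides of the WT livers. The mean ratio to WT was 2.19 in Ex3 livers and 2.02 in MYC+Ex3 livers. The log2 difference was 0.94 ± 0.343 (SE) for Ex3 (limma adjusted p = 0.692) and 0.81 ± 0.343 for MYC+Ex3 (limma adjusted p = 0.0924), neither of them called. For MYC alone it was 0.07 (limma adjusted p = 0.912). Between MYC+Ex3 and MYC livers the difference was 0.74 (95% interval 0.02 to 1.45), with an unadjusted limma p of 0.0436 and an adjusted p of 0.9999.

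Ctgf, the other ligand, was more variable. The WT livers held 2.19 to 5.05 RPKM (median 3.43) and the MYC+Ex3 livers 2.33 to 13.3 RPKM (median 7.60). Of the latter, 4 of 5 lay above all WT livers and 1 was at the low end. The difference of 0.77 ± 0.368 (SE) was not called (limma adjusted p = 0.138), and those of Ex3 (0.20) and MYC (0.24) were smaller than their standard errors. Both ligands depended on the library set. Within the keratin-free livers the MYC+Ex3 difference was 1.31 for Ctgf (limma adjusted p = 0.0201) and 1.15 for Cyr61 (limma adjusted p = 0.0253), resting on 2 libraries a group. Within the keratin-bearing livers, 3 a group, it was 0.40 and 0.58 (limma adjusted p = 0.673 and 0.342). Leaving out 1 low MYC+Ex3 liver also moved a gene past the threshold, Ctgf without replicate 3 (1.07, limma adjusted p = 0.0262) and Cyr61 without replicate 4 (1.10, limma adjusted p = 0.0178).

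The 3 feedback inhibitors of YAP had lower mean levels in the livers with MYC, with or without Ex3. Amotl1 was at 10.4, 7.14, 12.2, 7.27 and 8.52 RPKM in WT livers, at 5.47, 6.90, 7.05, 2.67 and 8.65 RPKM in MYC livers and at 4.54, 5.54, 6.55, 5.60 and 7.68 RPKM in MYC+Ex3 livers. In each MYC-bearing group 4 of 5 livers lay below the whole WT range. Amotl2 was at 9.24 to 16.4 RPKM in WT, 3.95 to 13 RPKM in MYC and 6.35 to 11.1 RPKM in MYC+Ex3 livers, with 3 of 5 below the WT range in each MYC-bearing group. Ptpn14 was at 1.25 to 2.06 RPKM in WT, 0.617 to 1.57 RPKM in MYC and 0.669 to 1.34 RPKM in MYC+Ex3 livers, with 4 of 5 below. Ex3 livers (6.75 to 10.8, 10.6 to 18.3 and 1.19 to 2.05 RPKM for the 3 genes) overlapped broadly with WT. The MYC differences were -0.55 ± 0.216 (SE) for Amotl1, -0.42 ± 0.243 for Amotl2 and -0.33 ± 0.145 for Ptpn14 (limma adjusted p = 0.0752, 0.227 and 0.104). The MYC+Ex3 differences were -0.52, -0.50 and -0.33 (limma adjusted p = 0.0836, 0.139 and 0.107). None was called. Added to Ex3, MYC gave -0.67 ± 0.243 for Amotl2 (limma adjusted p = 0.0567), with 4 of 5 MYC+Ex3 livers below every Ex3 liver, -0.47 for Amotl1 (0.134) and -0.31 for Ptpn14 (0.143).

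These values lay close to the threshold and crossed it under several settings. With the keratin set as a covariate Amotl1 (-0.68, limma adjusted p = 0.0173) and Amotl2 (-0.63, limma adjusted p = 0.0258) were called lower in MYC livers, and Amotl1 was called in MYC+Ex3 livers (-0.52, limma adjusted p = 0.0453). The keratin sets disagreed on which of the pair was lower in MYC+Ex3 livers. In keratin-free livers Amotl1 differed from WT by -1.03 (limma adjusted p = 0.0097) and Amotl2 by -0.18 (0.646), while in keratin-bearing livers Amotl1 differed by -0.19 (0.46) and Amotl2 by -0.72 (limma adjusted p = 0.0351). A single library, MYC liver replicate 4, was the lowest of its group in 6 of the 9 genes and the only keratin-bearing MYC liver. Without it the MYC differences were -0.32 for Amotl1 and -0.18 for Amotl2 (limma adjusted p = 0.226 and 0.587).

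Fstl1 had a higher mean in MYC livers at day 4. It was at 8.91, 8.21, 8.50, 7.58 and 8.67 RPKM in WT livers and at 11.1, 10.2, 11.9, 15.1 and 21.5 RPKM in MYC livers, so that every MYC liver lay above every WT liver. It was the only one of the 9 genes with no overlap in that comparison. That is close to the share of all genes tested, of which 10.9% had no overlap in the same direction. The log2 difference of 0.63 ± 0.242 (SE) was not called (limma adjusted p = 0.068). It was called with the keratin covariate (0.73, limma adjusted p = 0.0334), when only the WT and MYC livers were fitted (limma adjusted p = 0.0395) and without MYC liver replicate 2 (0.72, 0.0493). MYC+Ex3 livers ran from 5.48 to 20.8 RPKM, both below and above the WT range, and their difference was 0.23 (limma adjusted p = 0.532). Its direction turned with the library set. Both keratin-free MYC+Ex3 livers (5.48 and 7.50 RPKM) lay below both keratin-free WT livers (8.50 and 8.91 RPKM), a difference of -0.39 (limma adjusted p = 0.394). All 3 keratin-bearing MYC+Ex3 livers (9.46 to 20.8 RPKM) lay above all 3 keratin-bearing WT livers (7.58 to 8.67 RPKM), a difference of 0.64 (limma adjusted p = 0.115).

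No day 4 difference was called for Axl or Crim1, and the range of Axl in each group overlapped with that of WT livers. Axl was at 9.60 to 21.3 RPKM in WT, 12.7 to 19.2 RPKM in Ex3, 12.5 to 26.1 RPKM in MYC and 9.92 to 28.7 RPKM in MYC+Ex3 livers, and its largest difference from WT was 0.26 (95% interval -0.24 to 0.77, MYC). Axl too turned with the library set in MYC+Ex3 livers. The 2 keratin-free ones (12.5 and 13 RPKM) lay below the 2 keratin-free WT livers (18.8 and 21.3 RPKM), a difference of -0.61 (limma adjusted p = 0.0537). The keratin-bearing ones, at 9.92 to 28.7 RPKM against 9.60 to 15 RPKM, differed by 0.40 (limma adjusted p = 0.418). Crim1 was at 5.79 to 8.51 RPKM in WT livers and 7.55 to 10.9 RPKM in Ex3 livers, of which 3 of 5 lay above every WT liver. Its Ex3 difference of 0.27 (95% interval -0.01 to 0.55, limma adjusted p = 0.936) was not called. Both keratin-free Ex3 livers (8.68 and 10.2 RPKM) lay above both keratin-free WT livers (5.79 and 7.29 RPKM; difference 0.47), while the keratin-bearing sets overlapped (0.14), and neither difference was called (limma adjusted p = 1 and 0.819). In MYC and MYC+Ex3 livers the Crim1 difference was -0.02 and 0.08, with signs that turned within a keratin set (0.14 in keratin-free MYC and -0.02 in keratin-bearing MYC+Ex3 livers). Ankrd1 was at 0 to 0.654 RPKM in WT livers, 0.134 to 1.05 RPKM with Ex3, 0.373 to 2.37 RPKM with MYC and 0.222 to 1.16 RPKM with both.

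Over the day 4 comparisons limma called 0 of the 9 genes in each. For Ex3 against WT 0.132% of all 13688 genes tested were called, and 1 of the 9 (Cyr61) had an unadjusted p under 0.05, as had 5.44% of all genes. For MYC against WT 22.3% of genes were called, and 3 of the 9 (Amotl1, Ptpn14 and Fstl1) had an unadjusted p under 0.05 against 35.3% of all genes. For MYC+Ex3 against WT 24.1% were called, and 3 of the 9 (Cyr61, Amotl1 and Ptpn14) passed the unadjusted threshold against 36.5%. For MYC+Ex3 against Ex3 21.1% were called, and 3 of the 9 (Amotl1, Amotl2 and Ptpn14) passed the unadjusted threshold against 33.4%. For MYC+Ex3 against MYC 0.19% were called, and 1 of the 9 (Cyr61) passed it against 3.37%. The interaction of MYC and Ex3 called 0% of genes by limma, and 0 of the 9 had an unadjusted p under 0.05 against 0.964% of all. The median of the 9 log2 differences was 0.16 for Ex3, 0.07 for MYC and 0.07 for MYC+Ex3, beside 0.01, 0.07 and 0.05 over all genes. The comparisons with WT share the same WT livers.

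The authors' deposited table, made with DESeq2 per the submitters' processing notes, gives calls for some of the same differences. In the authors' deposited table Cyr61 was higher with Ex3 (log2 0.67, adjusted p = 0.017) and with MYC+Ex3 (0.85, 0.0156), and Ctgf with MYC+Ex3 (0.83, 0.0326). Fstl1 was higher with MYC in the authors' deposited table (0.60, adjusted p = 0.0187). The authors' deposited table has Amotl1 and Ptpn14 lower with MYC (-0.61 and -0.63, adjusted p = 0.0452 and 0.0328) and with MYC+Ex3 (-0.65 and -0.64, adjusted p = 0.002 and 0.0113), and Amotl2 lower with MYC+Ex3 (-0.60, adjusted p = 0.0203). Each of these has the same sign as the limma difference. Shares of all genes with an adjusted p that were called in the authors' deposited table were 0.765%, 20.5% and 27.8% for Ex3, MYC and MYC+Ex3 against WT, beside 1, 3 and 5 of the 8 genes given one.

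**Figure D2:**
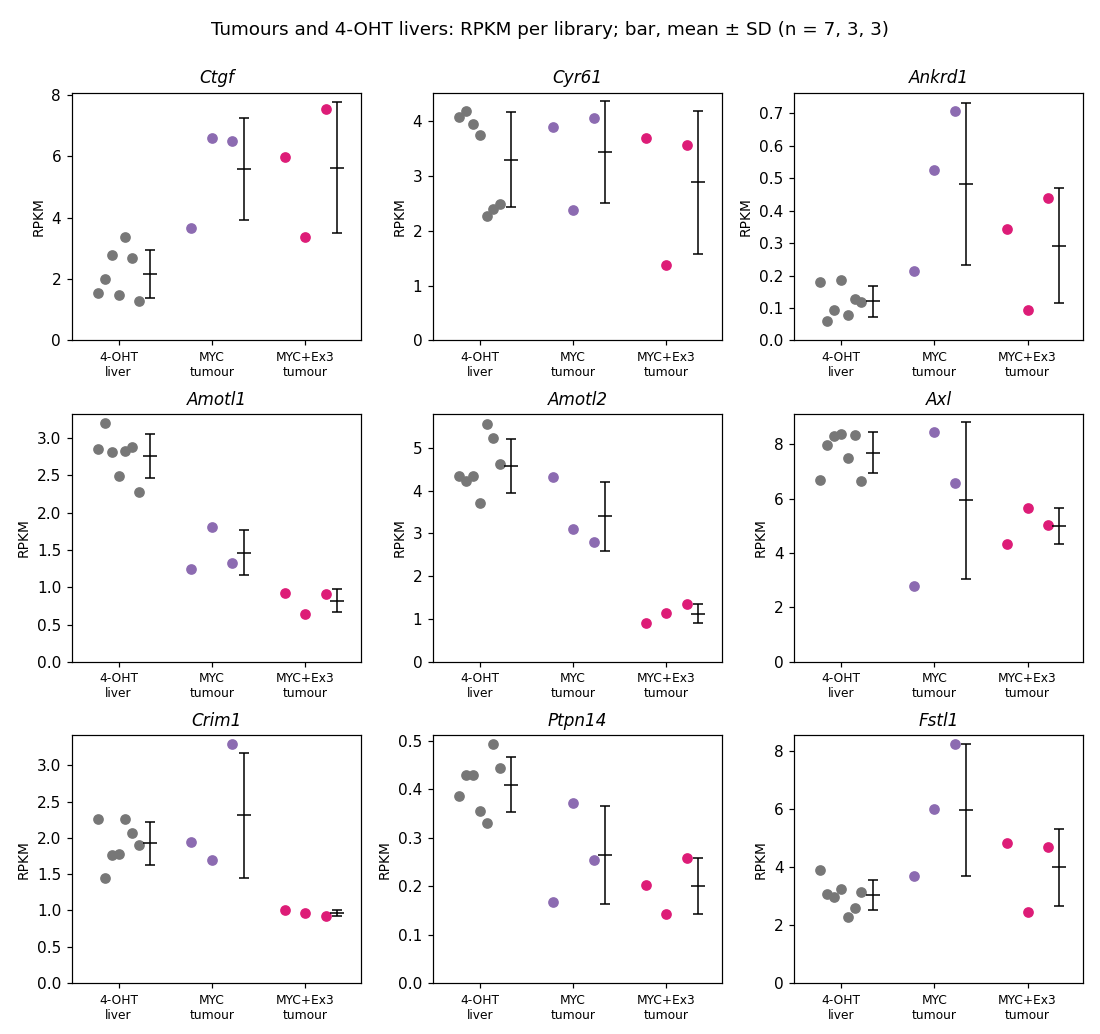
RPKM of each of the 9 genes in 7 4-OHT livers, 3 MYC tumours and 3 MYC+Ex3 tumours, one panel per gene and one point per library, with mean and SD. Ctgf was higher in both kinds of tumour, Amotl1 lower in all 6 tumours, and Amotl2 and Crim1 lower in all 3 MYC+Ex3 tumours than in every other library.

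In tumours the 9 genes split. Against 4-OHT livers, limma called Ctgf and Fstl1 higher and Amotl1 and Amotl2 lower in MYC tumours, and Ctgf higher and Amotl1, Amotl2, Axl and Crim1 lower in MYC+Ex3 tumours. The fit covered 7 of the 9 genes, since Ankrd1 and Ptpn14 did not reach an RPKM of 1 in 3 libraries. Changes in the tumours were common among all genes. In MYC tumours 36.2% of 11854 genes were called higher and 13.7% lower, beside 2 and 2 of the 7. In MYC+Ex3 tumours 42.3% were called higher and 18.4% lower, beside 1 and 4 of the 7. The median log2 difference of the 7 was 0.05 and -0.53, against 0.19 and 0.23 over all genes tested. Rescaling each library by its median ratio to a common reference brought the medians of all genes to 0.01 and 0.04, and rescaled values are given beside the main ones.

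Ctgf rose in both kinds of tumour. It was at 1.29 to 3.37 RPKM (median 2.02) in the 7 4-OHT livers, at 3.66, 6.60 and 6.49 RPKM in the MYC tumours and at 5.98, 3.36 and 7.55 RPKM in the MYC+Ex3 tumours. Every MYC tumour lay above every 4-OHT liver, and 2 of 3 MYC+Ex3 tumours did, the third lying at the top of the 4-OHT range. Ctgf rose by 1.06 ± 0.242 (SE, limma adjusted p = 0.00261) in MYC tumours and by 1.05 ± 0.242 in MYC+Ex3 tumours (limma adjusted p = 0.00187). Rescaled, the rises were 0.89 and 0.87. Ctgf was called in all 10 fits that left out 1 library of either comparison. The mean ratio to the 4-OHT livers was 2.57 and 2.59. Between the 2 kinds of tumour the difference was -0.01 (95% interval -0.62 to 0.60).

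Cyr61 did not follow its relative. It was at 2.27 to 4.19 RPKM (median 3.74) in 4-OHT livers, at 3.90, 2.37 and 4.06 RPKM in MYC tumours and at 3.69, 1.39 and 3.58 RPKM in MYC+Ex3 tumours, so 5 of the 6 tumours lay within the liver range. The differences were 0.05 (95% interval -0.44 to 0.54, limma adjusted p = 0.868) and -0.19 (-0.67 to 0.30, limma adjusted p = 0.494). The 4-OHT livers themselves formed 2 levels, 3.74 to 4.19 RPKM in the 4 livers whose titles begin S14 and 2.27 to 2.48 RPKM in the 3 whose titles begin S15. The sign of the MYC tumour difference turned with the set used as control, -0.19 against S14 and 0.37 against S15, neither called (limma adjusted p = 0.54 and 0.284). Ankrd1 was at 0.0605 to 0.186 RPKM (3 to 12 reads) in 4-OHT livers and at 0.213, 0.525 and 0.706 RPKM (9, 36 and 46 reads) in MYC tumours, all of them higher. In MYC+Ex3 tumours Ankrd1 was at 0.343, 0.0948 and 0.440 RPKM. With no filter on low values limma called Ankrd1 higher in MYC tumours (0.39, adjusted p = 0.00838) and not in MYC+Ex3 tumours (0.20, adjusted p = 0.12).

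The angiomotin-like genes fell. Amotl1 was at 2.28 to 3.20 RPKM (median 2.83) in 4-OHT livers, at 1.25, 1.81 and 1.33 RPKM in MYC tumours and at 0.918, 0.638 and 0.906 RPKM in MYC+Ex3 tumours. The 3 groups did not overlap at any point, with MYC tumours between the other groups. Amotl1 fell by 0.61 ± 0.110 (SE, limma adjusted p = 0.000454) in MYC tumours and by 1.05 ± 0.110 (limma adjusted p = 2.98e-06) in MYC+Ex3 tumours, and by 0.76 and 1.18 after rescaling. The difference between the tumours, -0.43 ± 0.130, was not called (limma adjusted p = 0.0817). It was called with a pseudocount of 0.1 (-0.76, limma adjusted p = 0.0419), and its adjusted p ranged up to 0.469 when only the tumours were fitted.

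Amotl2 showed the largest gap between the 2 kinds of tumour among the 7 genes tested. It was at 3.71 to 5.56 RPKM (median 4.35) in 4-OHT livers, at 4.31, 3.10 and 2.79 RPKM in MYC tumours and at 0.897, 1.13 and 1.34 RPKM in MYC+Ex3 tumours. The MYC tumours reached into the liver range with 1 of 3 libraries, and the MYC+Ex3 tumours lay far below both. Amotl2 fell by 1.39 ± 0.129 (SE, limma adjusted p = 1.11e-06) in MYC+Ex3 tumours, where the mean was 4.07-fold lower, and by 0.35 ± 0.129 (limma adjusted p = 0.0367) in MYC tumours. Against MYC tumours it fell by 1.04 ± 0.153 (limma adjusted p = 0.00121), a mean 3.02-fold lower. The smaller fall in MYC tumours was not stable. It lost its call in 5 of 10 fits without 1 library (without 4-OHT liver replicate 5, 6 or 7, or MYC tumour replicate 2 or 3, limma adjusted p up to 0.184), with sex as a covariate (limma adjusted p = 0.0655), with no filter (0.0506) and against the S14 livers alone (0.205), and after rescaling it was -0.52 (limma adjusted p = 0.00489). The fall against MYC tumours was called in all 6 fits without 1 tumour, but not when only the tumours were fitted (limma adjusted p = 0.0797).

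Ptpn14, the third inhibitor, was low in all groups. It was at 0.331 to 0.494 RPKM (median 0.429; 124 to 231 reads) in 4-OHT livers, at 0.168, 0.371 and 0.255 RPKM in MYC tumours and at 0.202, 0.142 and 0.258 RPKM in MYC+Ex3 tumours. Every MYC+Ex3 tumour and 2 of 3 MYC tumours lay below every liver. With no filter on low values limma gave differences of -0.16 (adjusted p = 0.0303) and -0.23 (adjusted p = 0.0028), on a scale where a pseudocount of 1 exceeds the level itself. The mean was 1.55-fold lower in MYC tumours and 2.04-fold lower in MYC+Ex3 tumours.

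Crim1 separated the tumours by genotype. It was at 1.45 to 2.27 RPKM (median 1.91) in 4-OHT livers, at 1.94, 1.70 and 3.30 RPKM in MYC tumours and at 1.01, 0.961 and 0.918 RPKM in MYC+Ex3 tumours. The MYC+Ex3 tumours were nearly identical and lay below every other library of the arm. Crim1 fell by 0.57 ± 0.139 (SE, limma adjusted p = 0.00276) against 4-OHT livers and by 0.73 ± 0.165 (limma adjusted p = 0.0235) against MYC tumours. In MYC tumours its difference of 0.16 was not called (limma adjusted p = 0.37). The fall against MYC tumours lost its call without each of MYC+Ex3 tumour replicates 1, 2 and 3 (limma adjusted p = 0.0683, 0.0763 and 0.0944) and when only the tumours were fitted (0.262).

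Axl was called lower in MYC+Ex3 tumours and Fstl1 higher in MYC tumours, and neither was called between the 2 kinds of tumour. Axl was at 6.64 to 8.36 RPKM (median 7.97) in 4-OHT livers and at 4.33, 5.66 and 5.02 RPKM in MYC+Ex3 tumours, all of them below every liver. It fell by 0.53 ± 0.206 (SE, limma adjusted p = 0.0365), or by 0.73 after rescaling (limma adjusted p = 0.00872). The call held in 3 of the 10 fits without 1 library (without 4-OHT liver replicate 1, 5 or 7) and its adjusted p was at most 0.134. Against the S14 or the S15 livers alone it was lost (limma adjusted p = 0.0861 and 0.165). In MYC tumours Axl was at 2.79, 8.43 and 6.58 RPKM, on both sides of the liver range. Its difference of -0.42 (limma adjusted p = 0.104) became -0.03 without MYC tumour replicate 1 and -0.69 without replicate 2 (limma adjusted p = 0.848 and 0.0112), and it was called after rescaling (-0.61, 0.0273).

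Fstl1 was at 2.26 to 3.88 RPKM (median 3.06) in 4-OHT livers, at 3.68, 6.01 and 8.22 RPKM in MYC tumours and at 4.83, 2.46 and 4.67 RPKM in MYC+Ex3 tumours. In each kind of tumour 2 of 3 libraries lay above every liver and the other lay within the range. Fstl1 rose by 0.75 ± 0.202 (SE, limma adjusted p = 0.00719) in MYC tumours, or by 0.57 after rescaling. The call was lost without MYC tumour replicate 3 (0.52, limma adjusted p = 0.0617) and against the S14 livers alone (0.65, 0.0508). The MYC+Ex3 difference of 0.28 was not called (limma adjusted p = 0.242), except without MYC+Ex3 tumour replicate 2 (0.53, 0.0439).

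Set side by side, MYC+Ex3 and MYC tumours differed in Amotl2 and Crim1, both lower with Ex3, where 2.1% of all genes were called lower and 2.02% higher. The median difference of the 7 genes was -0.43 and that of all genes 0.03. Over all 9 genes, 8 had a lower mean in the MYC+Ex3 tumours, the exception being Ctgf with a mean ratio of 1.01. The groups did not overlap for Amotl1, Amotl2 and Crim1, 3 of the 7 tested, where 7.71% of all 11854 genes tested were lower without overlap, and 0 of the 7 were higher without overlap (8.59%). Against 4-OHT livers the MYC+Ex3 tumours lay wholly below in 4 of the 7 (17.8% of the genes tested) and wholly above in 0 (38.2%). The MYC tumours lay wholly above in 1 of the 7 (26.3%) and wholly below in 1 (8.89%). Outside that base, Ptpn14 lay wholly below the livers in MYC+Ex3 tumours and Ankrd1 wholly above them in MYC tumours. Both comparisons use the same 7 livers. In the authors' deposited table the same contrast between tumours had Amotl2 (log2 -1.49, adjusted p = 9.62e-07) and Crim1 (-1.14, adjusted p = 0.0016) lower and Amotl1 at the threshold (-0.79, adjusted p = 0.0505). In the authors' deposited table Ptpn14 was also lower in MYC and MYC+Ex3 tumours than in livers (-0.81 and -1.25), and Ankrd1 was higher in MYC tumours (1.56, adjusted p = 0.002). Such calls were common there, at 44.5% of all genes for MYC tumours and 60.7% for MYC+Ex3 tumours against livers. Between the tumours 4.49% were called. Of the 9 genes it had 3 higher and 3 lower, 1 higher and 5 lower, and 0 higher and 2 lower in these comparisons.

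**Figure D3:**
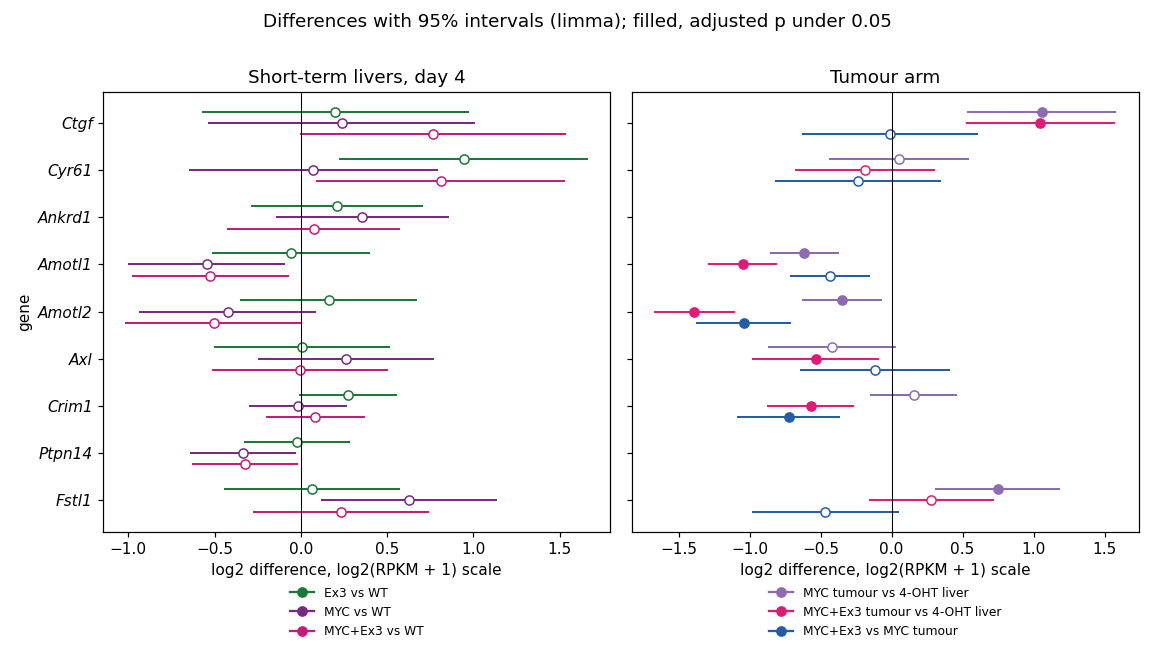
Log2 differences with 95% intervals from limma, on the log2(RPKM + 1) scale, of the 9 genes at day 4 against WT (left) and of the 7 tested in the tumour arm (right), where the rows of Ankrd1 and Ptpn14 are empty; filled points were called at an adjusted p under 0.05. No day 4 difference was called, and in tumours Ctgf lay to the right and Amotl1 and Amotl2 to the left of 0 against 4-OHT livers.

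Of the co-activators, limma called Wwtr1 lower in MYC livers against WT and called neither gene in the other comparisons. Yap1 was at 14.8 ± 1.33 RPKM (SD, n = 5) in WT, 14.9 ± 1.73 in Ex3, 14.7 ± 1.49 in MYC and 16.4 ± 2.97 in MYC+Ex3 livers, and no difference was called. In the tumour arm Yap1 was at 4.68 ± 0.497 RPKM (SD, n = 7) in the controls. MYC tumours held 5.57 ± 0.732 RPKM and MYC+Ex3 tumours 5.66 ± 0.578 RPKM of Yap1 (n = 3 each; differences 0.21 and 0.23, limma adjusted p = 0.129 and 0.0824). Wwtr1 was lower in every MYC liver (10.4 to 13.1 RPKM) than in every WT liver (14.5 to 16.3 RPKM) and fell by 0.36 ± 0.108 (SE, limma adjusted p = 0.0205). Every MYC+Ex3 liver (11.3 to 13.9 RPKM) also lay below every WT liver and below every Ex3 liver, though limma called neither difference. The fall without overlap was thus not particular to MYC alone. The share of all genes that were lower without overlap at day 4 is not given here, so this fall cannot be set against it. In MYC tumours Wwtr1 ran from 2.23 to 10.1 RPKM, wider than the liver range of 3.41 to 5.50 RPKM. In MYC+Ex3 tumours Wwtr1 was at 2.32 to 5.49 RPKM, with a mean of 3.63 against 4.70 RPKM in the livers, and the difference of -0.35 was not called (limma adjusted p = 0.305). The authors' deposited table has Wwtr1 lower there (log2 -0.61, adjusted p = 0.00523) and in MYC livers (-0.48, adjusted p = 0.00293).

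A list of 15 further genes of published YAP/TAZ signatures was examined beside the 9. At day 4 limma called 0 of 12 tested with Ex3 (1 with an unadjusted p under 0.05), 0 higher and 1 lower with MYC, 0 higher and 2 lower with MYC+Ex3 against WT, and 0 higher and 4 lower with MYC+Ex3 against Ex3. The shares of all genes called in either direction were 0.132%, 22.3%, 24.1% and 21.1% in these comparisons. In tumours 1 of 10 was higher and 4 lower with MYC, beside 36.2% and 13.7% of all genes, and 1 higher and 5 lower with MYC+Ex3, beside 42.3% and 18.4%. The gene called most often was Lats2, the Hippo kinase that YAP/TAZ induce as feedback. Lats2 was at 9.44 ± 0.781 RPKM (SD, n = 5) in WT and 6.73 ± 1.99 RPKM in MYC livers, and fell by 0.47 (limma adjusted p = 0.0259). In tumours it fell from 2.52 ± 0.222 RPKM (SD, n = 7) to 1.35 ± 0.0926 with MYC and 1.20 ± 0.196 with MYC+Ex3 (n = 3 each), by 0.58 and 0.68 (limma adjusted p = 0.000271 and 3.96e-05). Rbms3, an RNA-binding protein gene, fell by 0.58 in MYC+Ex3 livers (limma adjusted p = 0.0092) and by 0.46 and 0.66 in MYC and MYC+Ex3 tumours. F3, the gene of tissue factor, fell by 0.86 and 1.24 in the tumours (limma adjusted p = 0.00392 and 0.000161). Igfbp3, which encodes an IGF-binding protein, went the other way in MYC tumours, where it rose by 0.67 (limma adjusted p = 0.015). Of 17 Hippo and TEAD genes tested in tumours, 3 were higher and 0 lower with MYC, and 4 and 0 with MYC+Ex3. The shares called higher were thus below the 36.2% and 42.3% of all genes. Both sets included Nf2, an upstream activator of the Hippo kinases (0.69 and 0.80), and Amot, the third angiomotin gene (0.72 and 0.97), which rose where Amotl1 and Amotl2 fell.

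Markers of other liver cells were summed per library. Endothelial markers (10 genes) summed to 51.5 to 84.7 RPKM in 4-OHT livers, 28.2 to 46.9 RPKM in MYC tumours and 29.4 to 34.7 RPKM in MYC+Ex3 tumours, with 6 of 8 tested called lower in each kind of tumour (13.7% and 18.4% of all genes). Macrophage markers (10 genes) summed to 151 to 207, 53.0 to 157 and 75.7 to 97.1 RPKM, with 9 and 8 of 10 lower. MYC tumour replicate 1 had the lowest macrophage sum, 53.0 RPKM, and also the lowest Axl of the arm. Stellate cell and fibroblast markers (10 genes) summed to 42.1 to 55.4 RPKM in livers, 29.6 to 58.0 RPKM in MYC tumours and 27.4 to 36.1 RPKM in MYC+Ex3 tumours. Col1a1, Col1a2, Col3a1 and Acta2 rose in MYC tumours while Dcn, Lrat and Reln fell. Of the 10, limma called 4 higher and 3 lower there, beside 36.2% and 13.7% of all genes. In MYC+Ex3 tumours 2 were called higher and 5 lower, beside 42.3% and 18.4%. The lowest stellate sum among MYC tumours was that of replicate 1, which also had the lowest Ctgf, Ankrd1 and Fstl1. That library was the lowest MYC tumour in 6 of the 9 genes, with Amotl1, Axl and Ptpn14 as the others. It also had the fewest reads in genes (6.67 M) and the highest hepatocyte sum (442 RPKM) of the MYC tumours. Cholangiocyte markers (9 genes) summed to 11.2 to 16.9, 8.43 to 24.1 and 5.33 to 11.4 RPKM. Of the 4 tested, 1 was called higher and 0 lower in MYC tumours, beside 36.2% and 13.7% of all genes. In MYC+Ex3 tumours 0 were called higher and 2 lower, beside 42.3% and 18.4%. No marker of these lists was at 0 in every library of a group. At day 4 the endothelial sum was 191 to 327 RPKM in WT and 122 to 247 RPKM in MYC livers. Of the 10 markers 2 were called lower (Kdr and Tek), where 22.3% of all genes were called in either direction. The part of these cell types in the results was not tested.

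**Figure D4:**
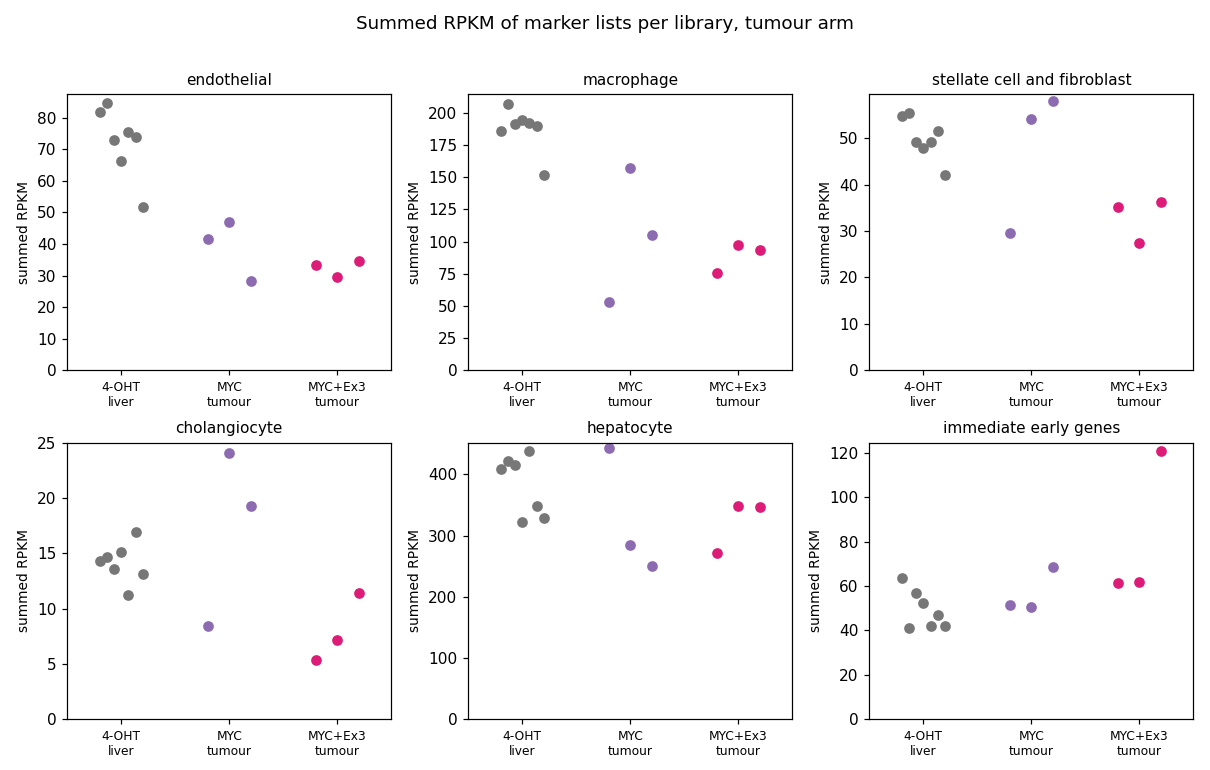
Summed RPKM of marker lists per library in the tumour arm, one panel per list and one point per library, for 7 4-OHT livers, 3 MYC tumours and 3 MYC+Ex3 tumours. Endothelial sums of all 6 tumours (28.2 to 46.9) lay below all livers (51.5 to 84.7), and macrophage sums were lowest in MYC tumour replicate 1.

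Immediate early genes, which respond quickly to serum and to tissue handling, were also read, since Ctgf and Cyr61 are known to be serum-inducible. Their sum was 41.1 to 63.6 RPKM in 4-OHT livers, 50.3 to 68.6 RPKM in MYC tumours and 61.5 to 121 RPKM in MYC+Ex3 tumours, and 2 and 5 of 11 tested were called higher, beside 36.2% and 42.3% of all genes. At day 4 it was 158 to 309 RPKM in WT, 179 to 215 in Ex3, 218 to 250 in MYC and 148 to 245 RPKM in MYC+Ex3 livers, with 6 of 12 called higher for MYC, and 4 higher and 2 lower for MYC+Ex3, beside 22.3% and 24.1% of all genes called in either direction. Their part in the values of Ctgf and Cyr61 was not tested.

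The genes with the most similar profile across libraries differed from member to member. Likeness was the root mean square difference of standardised log2 values, smaller for closer profiles, over genes whose RPKM averaged 2 or more. It is a description over libraries that share depth and tissue makeup. In the 13 libraries of the tumour arm the closest were Maf and Oasl2 to Amotl1 (0.183 and 0.190, where the median gene was at 1.72), Lims2 and App to Amotl2 (0.262 and 0.264), Fgl2 and Cybb to Axl (0.228 and 0.234), Tagln and Col1a1 to Fstl1 (0.367 and 0.440) and Zbed4 and Arl6ip6 to Ctgf (0.367 and 0.368). Camk1 and Sparc were closest to Cyr61 (0.574 and 0.584) and Ift172 and Fzd7 to Crim1 (0.308 and 0.446). Ankrd1 was closest to Fstl1 (0.290), itself one of the 9, and Ptpn14 to Kctd12 (0.383). In the 20 short-term libraries the closest were Cd300lg and Stab2 to Amotl1 (0.275 and 0.283), Slc25a23 and Slco2b1 to Amotl2 (0.283 and 0.324), Il18bp and Nckap1l to Axl (0.329 and 0.360) and Col5a2 and Fbn1 to Fstl1 (0.408 and 0.544). Ctgf, Crim1 and Ankrd1 had no gene closer than 0.630 there. Stab2 is on the endothelial list and Col1a1 on the stellate list.

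Among themselves the 9 genes did not form 1 profile. The closest pairs were Ankrd1 and Fstl1 (0.290), Amotl1 and Ptpn14 (0.476) and Amotl1 and Amotl2 (0.511) in the tumour arm, and Amotl1 and Ptpn14 (0.549) in the short-term arm. The ligand Ctgf was farthest from the inhibitors Amotl1 and Amotl2 in the tumour arm (1.82 and 1.79). Cyr61 and Ctgf were at 1.27 in the short-term arm and 1.42 in the tumour arm.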

How the data were processed

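Total RNA libraries were strand-specific, per the labels' protocols. The submitters' processing notes name TopHat2 2.0.8, SAMtools, featureCounts 1.4.5-p1, DESeq2 and build mm9, with no roles or settings. The authors deposited RPKM for 21671 genes and 33 libraries; low values of all 20485 genes above 0 were whole multiples of 1 read (tolerance 0.01), which gave the reads quoted. The authors' deposited log2 fold changes and adjusted p-values were copied, not recomputed. Here limma 3.58.1 (R 4.3.3; empirical Bayes with trend, two-sided) was fitted to log2(RPKM + 1), a pseudocount of 1, over the 20 short-term or the 13 tumour arm libraries, with Benjamini-Hochberg adjustment within each comparison. The script was tested on simulated data. The 9 genes and all lists were chosen with earlier results of these data known. All 9 genes are named; of the 2 pathway lists, genes called in at least 2 pairwise comparisons, plus Yap1 and Wwtr1; and for each of the 9 the 2 closest profiles. Marker genes named by symbol were chosen after their values were seen. Alternatives changed the pseudocount, filter, scaling, samples fitted, sex, keratin set and control set, and left out each library. Sex, not in the labels, was read from Xist and Ddx3y.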

Additional observations from a re-analysis of the deposited data

Results flagged for a closer look

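Of 45 combinations of gene and group of at least 5 libraries, 2 had a library set apart from the others by more than the gap allowed at the 95% level, and chance alone gives about 1 in 20. Ankrd1 was at 2.37 RPKM in MYC liver replicate 1, from 22 reads, where the other MYC livers were at 0.373 to 0.645 RPKM. Ankrd1 was also at 1.16 RPKM in MYC+Ex3 liver replicate 2, from 15 reads, where the others were at 0.222 to 0.431 RPKM. The same MYC+Ex3 liver had the highest Ctgf, Cyr61 and Amotl2 of its group, and the same MYC liver the highest Cyr61.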

How the results depend on the processing

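No paired analysis was made, since the labels name no pairs of libraries across the groups. The labels carry no replicate numbers, and those used here follow the order of the samples within each group. The count of the 9 genes called (0 at day 4) became 2 for MYC against WT after median-ratio rescaling, 1 with only the groups compared and 3 with the keratin covariate. For MYC+Ex3 against WT it became 1 rescaled, 2 with the covariate, 3 within keratin-free and 1 within keratin-bearing livers. For MYC+Ex3 against Ex3 it became 1 with a filter at RPKM 5, 1 rescaled, 2 with only the groups compared, 1 with the covariate and 1 within each keratin set. In tumours the filter at RPKM 5, which tests 2 of the genes, gave 1 call for MYC (4 in the main analysis), 2 for MYC+Ex3 (5) and 0 between tumours (2). The S14 livers alone gave 2 for MYC, and fitting only the tumours gave 0 between them. Leaving out 1 library gave 0 to 2, 0 to 1 and 0 to 1 calls for MYC and MYC+Ex3 against WT and MYC+Ex3 against Ex3, and 2 to 4, 4 to 5 and 1 to 3 in the 3 tumour comparisons. It gave 0 throughout for Ex3, for MYC+Ex3 against MYC and for the interaction. Of 76 values of single called genes under other settings 67 kept their call, 9 lost it and 0 changed sign. The causes were not tested. Depth limits Ankrd1 (0 to 22 reads in short-term livers).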
